A study of Arabidopsis thaliana with 30 samples.

Results

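ELIP1 (locus AT3G22840) and ELIP2 (locus AT4G14690) are the genes of the early light-induced proteins of Arabidopsis thaliana. They were taken by locus from a gene table and make up 2 of its 34212 loci. RNA was sequenced from whole rosettes of 3-week-old plants that had spent 6 h outdoors, from sunrise to solar noon of 1 day, under 1 of 5 sunlight filters. The plants were the wild type Ler, the photoreceptor mutant uvr8-2 and the photoreceptor double mutant cry1cry2, and each filter is called here by its label: blue0, UV0, UVA350, UVA or UVA+B. Crossed, the 3 genotypes and 5 filters make 15 groups of 2 libraries each. All plants, the Ler controls included, had been raised indoors under white fluorescent lamps behind a film that took out the lamps' small UV-A output. Each library pooled RNA of 2 field blocks, with 5 rosettes pooled in each block sample. The cry1cry2 line lacks both cryptochromes, so CRY1 and CRY2 cannot be told apart.

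Early light-induced proteins are relatives of the chlorophyll-binding antenna proteins of the photosystems. They sit in the thylakoid membrane of the chloroplast, appear during greening and under strong light, and are thought to hold chlorophyll while the photosystems are assembled or repaired. Light reaches their genes through photoreceptors: UVR8 is the receptor for UV-B, and the cryptochromes CRY1 and CRY2 absorb blue light and UV-A. Both routes meet at the transcription factor HY5.

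The libraries held 12109222 to 22865826 estimated counts, and chloroplast genes took 0.123% to 1.585% of them. Leaf genes were abundant in every library, with RBCS1A, a small subunit of Rubisco, between 9391 and 16640 CPM, the share of a library's counts on a per-1000000 scale. For all genes other than the tissue markers given here, CPM were taken over library totals scaled by normalization factors (TMM). The seed storage genes CRA1 and CRC were above 0 in 1 library each, and the flower identity genes AG, AP3 and PI did not exceed 3.27 CPM. Of the root markers, WER stayed at or under 0.464 CPM, PYK10 lay between 23.1 and 85.6 CPM and SCR between 25.6 and 43.2 CPM. Mean CRY1 level was 46.9 to 70.6 CPM over the 5 cry1cry2 groups and 83.7 to 121 CPM over the 5 Ler groups. By the test described below, CRY1 was lower in cry1cry2 than in Ler under all filters except UV0, and CRY2 under UVA+B and blue0. Mean UVR8 level was 133 to 148 CPM in uvr8-2 and 114 to 133 CPM in Ler. Transcripts of CRY1 and UVR8 were thus present in the mutants, and their level does not check the receptors.

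In the RefSeq annotation of the TAIR10.1 assembly, which is the Columbia reference and not Ler, ELIP1 lies on the minus strand of chromosome 3 and ELIP2 on the plus strand of chromosome 4. Their mRNAs are 1035 and 909 bases long, each in 3 exons, with coding parts of 588 and 582 bases. The aligned coding parts were identical at 78.9% of 564 positions. Their longest identical run was 26 bases, and the mRNAs shared 0 of the 1005 and 879 stretches of 31 bases that they contain. Coordinates are left out, since the build behind the table is not stated in the labels or the file.

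The promoters are shown because both genes followed nearly the same course over the 30 libraries. Each sequence below is the 250 bases just upstream of the annotated transcript start, on the gene's own strand. Capitals mark matches to 6 motifs searched on both strands: the G-box CACGTG, the T/G-box CACGTT, their ACGT core, the I-box GATAAG, the DRE core CCGAC and the evening element AAATATCT.
ELIP1: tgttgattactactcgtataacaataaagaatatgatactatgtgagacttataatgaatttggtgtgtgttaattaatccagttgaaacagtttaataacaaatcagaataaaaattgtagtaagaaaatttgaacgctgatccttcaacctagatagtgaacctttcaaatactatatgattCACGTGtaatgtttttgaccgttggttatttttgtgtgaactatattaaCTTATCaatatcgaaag
ELIP2: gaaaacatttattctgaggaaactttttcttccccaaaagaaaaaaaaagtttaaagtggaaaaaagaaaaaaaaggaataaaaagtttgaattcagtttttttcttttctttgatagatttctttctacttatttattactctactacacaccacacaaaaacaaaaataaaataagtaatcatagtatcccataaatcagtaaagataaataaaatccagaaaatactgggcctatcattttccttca
The ELIP1 stretch held a G-box 66 to 61 bases upstream of the start, which contains an ACGT core. A G-box was found in 6.5% of the same stretches of 27443 genes and an ACGT core in 44.1%. HY5 is known to bind such elements. The ELIP1 stretch also held an I-box on the opposite strand, 17 to 12 bases upstream, a motif found in 12.3% of the stretches. None of the 6 motifs was found in these 250 bases of ELIP2, of which 25.2% are G or C, against 28.0% for ELIP1. The matches are letters in the reference and not measured binding sites.

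Both genes ran from near 0 to a sizeable share of the rosette's transcripts. ELIP1 took from 0.000155% to 0.568% of a library's counts and ELIP2 from 0.00002% to 0.273%. In Ler the mean levels of both genes followed the order blue0, UVA350, UV0, UVA and UVA+B from lowest to highest, as the plot of levels by library shows. The steps between neighbouring filters are named here after what the filter names state: from blue0 to UV0 is the blue step, from UV0 to UVA350 the long UV-A step, from UVA350 to UVA the short UV-A step and from UVA to UVA+B the UV-B step. The labels give no wavelengths. A change is called where edgeR's quasi-likelihood test, adjusted over 19980 genes by the Benjamini-Hochberg method, gave a p under 0.05, and changes are log2 values with their standard error (SE). In whole rosettes, fewer expressing cells and less RNA per cell cannot be told apart.

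**Figure D1:**
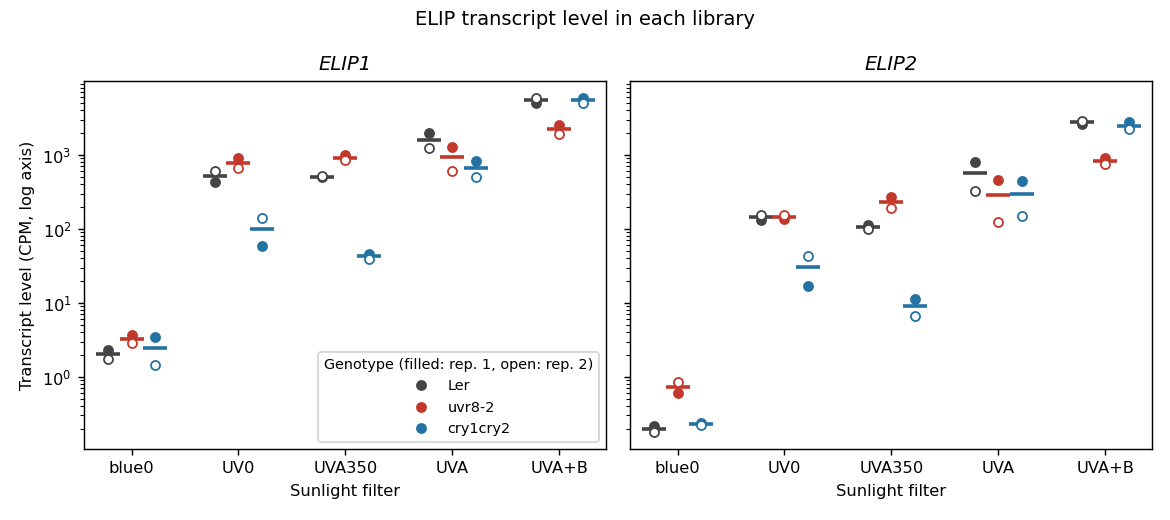
Transcript level of ELIP1 and ELIP2 (CPM, log axis) in each of the 30 libraries, by filter and genotype. Filled and open points are replicates 1 and 2 and bars are group means (n = 2). All blue0 libraries lie under 4 CPM. Differences from Ler were called in cry1cry2 under UV0 and UVA350 and in uvr8-2 under UVA+B. Without a call, both uvr8-2 libraries also lie above both Ler libraries under blue0 and UVA350, and for ELIP1 under UV0. Those of cry1cry2, also uncalled, lie below Ler for ELIP1 under UVA and above Ler for ELIP2 under blue0.

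Under the filter named blue0 both genes were close to silent in every genotype. ELIP1 stood at 2.30 and 1.73 CPM in the 2 Ler libraries, at 3.67 and 2.83 CPM in uvr8-2 and at 3.49 and 1.43 CPM in cry1cry2. ELIP2 stood at 0.219 and 0.179 CPM in Ler, at 0.611 and 0.848 CPM in uvr8-2 and at 0.241 and 0.223 CPM in cry1cry2. These ELIP2 values rest on 7, 30 and 9 estimated counts per group, with exact 95% Poisson intervals of 2.81 to 14.4, 20.2 to 42.8 and 4.12 to 17.1 that cover counting error only. For ELIP1 the groups held 71, 140 and 90 estimated counts. Neither mutant was called different from Ler under blue0, although both uvr8-2 libraries lay above both Ler libraries for each gene. For ELIP1 the difference was 0.69 ± 0.59 (SE) in uvr8-2 with an adjusted p of 0.965, and 0.23 ± 0.61 in cry1cry2 with an adjusted p of 0.905. For ELIP2 it was 1.80 ± 1.91 and 0.20 ± 2.27, with wide intervals, up to 5.88 and 5.03. In cry1cry2 1.51% of genes were called under blue0; in uvr8-2 edgeR called 0%, 1130 had an unadjusted p under 0.05, and DESeq2 called 13.

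Under UV0, which its name sets apart from blue0 by the blue light it passes, the Ler libraries held 428 and 602 CPM of ELIP1 and 133 and 156 CPM of ELIP2. The uvr8-2 libraries held 902 and 656 CPM of ELIP1 and 135 and 156 CPM of ELIP2. The cry1cry2 libraries held 59.3 and 141 CPM of ELIP1 and 17.2 and 43.6 CPM of ELIP2. No UV0 library of either gene overlapped with a blue0 library, and all cry1cry2 libraries lay below all Ler and uvr8-2 libraries.

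Of the 4 steps between neighbouring filters, the blue step was the largest on the log2 scale for both genes in every genotype. It was called for both genes in all 3. In CPM the order differed. The Ler mean of ELIP1 went from 1599 to 5496 CPM at the UV-B step, but from 2.02 to 515 CPM at the blue step. In Ler, ELIP1 rose by 7.99 ± 0.53 (adjusted p = 9.77e-08) and ELIP2 by 9.44 ± 1.74 (adjusted p = 1.27e-05), and 9.7% of tested genes were called higher at this step. ELIP2 and ELIP1 held ranks 1 and 2 of the 19980 genes by estimated size of this rise. The ranks of ELIP2 at the blue step rest on its few counts under blue0. In Ler its 95% interval was 5.73 to 13.2. In uvr8-2 the rise was 7.89 ± 0.47 for ELIP1 (adjusted p = 9.75e-08) and 7.66 ± 0.97 for ELIP2 (adjusted p = 1.78e-05), where 8.38% of genes were called higher, and the genes again took ranks 1 and 2, in the opposite order. In cry1cry2 only 32 genes were called higher at the blue step, which is 0.16% of those tested, and both ELIP genes were among them. There ELIP1 rose by 5.39 ± 0.50 (adjusted p = 8.15e-05, rank 6) and ELIP2 by 7.00 ± 1.56 (adjusted p = 0.00752, rank 1). Without blue0 replicate 1 the ELIP1 step of cry1cry2 was 6.13, and without UV0 replicate 2 it was 4.64, called in both cases. The ELIP2 call in cry1cry2 was lost when a library was left out in 3 of 4 fits: the adjusted p was 0.195 without blue0 replicate 1, 0.133 without blue0 replicate 2 and 0.0971 without UV0 replicate 2, where the step was 6.18.

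Whether the blue step itself was smaller in cry1cry2 was tested as a difference of differences. For ELIP1 the blue step of cry1cry2 minus that of Ler was −2.59 ± 0.73, with a 95% interval of −4.15 to −1.04 and an adjusted p of 0.135, while DESeq2 gave −2.63 with an adjusted p of 0.00223. In this comparison 88 genes (0.44%) were called lower by edgeR and 298 by DESeq2. For ELIP2 the value was −2.44 ± 2.34 (adjusted p = 0.791). For uvr8-2 the difference of ELIP1's blue step from that of Ler was −0.10 ± 0.71, with an interval of −1.60 to 1.41, and that of ELIP2 −1.79 ± 1.99. In that comparison 0% of genes were called by edgeR, 665 had an unadjusted p under 0.05, and DESeq2 called 0.

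Neither gene passed the test between UV0 and UVA350 in any genotype. Under UVA350 the Ler libraries held 500.3 and 513 CPM of ELIP1 and 115 and 100.2 CPM of ELIP2. Those of uvr8-2 held 999.6 and 843 CPM of ELIP1 and 271 and 194 CPM of ELIP2. Those of cry1cry2 held 46.3 and 38.7 CPM of ELIP1 and 11.3 and 6.61 CPM of ELIP2. For ELIP1 the Ler and uvr8-2 libraries overlapped with their UV0 libraries. For ELIP2 they lay below UV0 in Ler and above it in uvr8-2, without overlap. Both cry1cry2 libraries lay below both of their UV0 libraries for each gene. The long UV-A step of ELIP1 was −0.02 ± 0.39 in Ler, 0.24 ± 0.39 in uvr8-2 and −1.24 ± 0.40 in cry1cry2, and that of ELIP2 was −0.43 ± 0.56, 0.67 ± 0.56 and −1.78 ± 0.62. None was called, with adjusted p-values between 0.593 and 1. At this step edgeR called 0% of genes in Ler and in cry1cry2 and 0.0501% in uvr8-2. Unadjusted p-values under 0.05 were held by 919, 610 and 3086 genes of Ler, cry1cry2 and uvr8-2, and DESeq2 called 3, 1 and 258. As a difference from Ler, the long UV-A step was −1.21 ± 0.56 for ELIP1 and −1.35 ± 0.84 for ELIP2 in cry1cry2, and 0.27 ± 0.56 and 1.101 ± 0.79 in uvr8-2. In both of these comparisons edgeR and DESeq2 called 0% of genes, with 291 and 566 at an unadjusted p under 0.05.

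Both genes rose at the short UV-A step in cry1cry2. Under UVA the cry1cry2 libraries held 824 and 508 CPM of ELIP1 and 444 and 148 CPM of ELIP2, against at most 46.3 and 11.3 CPM under UVA350. ELIP1 rose there by 3.97 ± 0.40 (adjusted p = 5.03e-05) and ELIP2 by 5.06 ± 0.61 (adjusted p = 0.000348), ranks 10 and 5 by size, where 2.19% of genes were called higher. In fold terms these are a 15.7-fold and a 33.4-fold difference. ELIP2's step was 4.08 without UVA replicate 1 and 5.67 without UVA replicate 2, called in both cases.

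In Ler the same step was of middling size and not called by edgeR. The UVA libraries of Ler held 1962 and 1236 CPM of ELIP1 and 813 and 327 CPM of ELIP2, all above the UVA350 libraries. The step was 1.66 ± 0.39 for ELIP1 (adjusted p = 0.143) and 2.41 ± 0.56 for ELIP2 (adjusted p = 0.148), and 0.185% of genes were called higher. DESeq2 gave nearly the same sizes, 1.66 and 2.42, and called both, with adjusted p-values of 0.0215 and 0.0167. It called 84 genes higher at this step, against 37 by edgeR.

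In uvr8-2 the libraries under UVA overlapped with those under UVA350. They held 1293 and 605 CPM of ELIP1 and 456 and 126 CPM of ELIP2. The step was 0.04 ± 0.39 for ELIP1 and 0.33 ± 0.56 for ELIP2, with 95% intervals of −0.79 to 0.88 and −0.86 to 1.51. At this step 0% of genes were called in uvr8-2 by edgeR, 633 had an unadjusted p under 0.05, and DESeq2 called 0. Compared with Ler, the step was lower in uvr8-2 by values of −1.62 ± 0.55 for ELIP1 and −2.08 ± 0.79 for ELIP2, neither called (adjusted p = 1.00 for both). In that comparison edgeR called 0%, 685 genes had an unadjusted p under 0.05, and DESeq2 called 6. Compared with Ler, the step in cry1cry2 was higher by 2.31 ± 0.56 for ELIP1 (adjusted p = 0.636) and 2.65 ± 0.83 for ELIP2 (adjusted p = 1.00), where 0.015% of genes were called higher. DESeq2 called the ELIP1 difference, with an adjusted p of 0.0423, where it called 21 genes higher and edgeR 3.

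The UVA groups, cry1cry2 under UV0 and, for ELIP1, cry1cry2 under blue0 had wide gaps between libraries. In cry1cry2 under blue0 the library numbered 1 was 2.45 times the other for ELIP1. In cry1cry2 under UV0 the library numbered 2 was above the other, 2.37 times for ELIP1 and 2.54 times for ELIP2. In all 3 genotypes the UVA library numbered 1 was above the one numbered 2, by 1.59 to 2.14 times for ELIP1 and by 2.49 to 3.63 times for ELIP2. Over the 15 groups, the same library was the higher one for both genes in 12. The biological coefficient of variation fitted to ELIP1 was 0.285 and to ELIP2 0.401, against a median of 0.108 over the tested genes. What separated the UVA libraries was not tested.

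Under UVA+B both genes had their highest mean level in each genotype. Under UVA+B the Ler libraries held 5095 and 5898 CPM of ELIP1 and 2625 and 2907 CPM of ELIP2. Those of cry1cry2 held 5931 and 5098 CPM of ELIP1 and 2751 and 2234 CPM of ELIP2, overlapping with Ler. Those of uvr8-2 held 2515 and 1914 CPM of ELIP1 and 899.7 and 745 CPM of ELIP2, below every library of the other genotypes.

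In Ler the UV-B step was a 3.44-fold rise of ELIP1, 1.78 ± 0.39 on the log2 scale (adjusted p = 0.0212). ELIP2 rose 4.85-fold, or by 2.28 ± 0.55 (adjusted p = 0.0425), and 2.23% of genes were called higher. Both calls lie near the threshold. With UVA replicate 1 left out, ELIP2's step was 3.07, and the adjusted p was 0.0538 for ELIP1 and 0.0549 for ELIP2, and with UVA replicate 2 left out it was 0.308 and 0.408. Leaving out UVA+B replicate 1 took it to 0.0803 for ELIP2, and leaving out UVA+B replicate 2 took it to 0.152 for ELIP1 and 0.210 for ELIP2. With no filter on low counts it was 0.0686 for ELIP2.

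In cry1cry2 the UV-B step was 3.05 ± 0.39 for ELIP1 (adjusted p = 0.000121) and 3.07 ± 0.55 for ELIP2 (adjusted p = 0.00275), both called, where 6.72% of genes were called higher. Without UVA replicate 1 ELIP2's step was 4.08, and without UVA replicate 2 it was 2.48, still called. Without the libraries in which chloroplast genes took over 1% of the counts, 2 of which are the replicates 2 of these groups, ELIP2's step was 2.63 with an adjusted p of 0.0960. In uvr8-2 the step was 1.22 ± 0.39 for ELIP1 (adjusted p = 0.580) and 1.498 ± 0.55 for ELIP2 (adjusted p = 0.691), neither called, although no library of either group overlapped with one of the other. At that step edgeR called 0% of genes, 1204 had an unadjusted p under 0.05, and DESeq2 called 38. The UV-B step of uvr8-2 minus that of Ler was −0.56 ± 0.55 for ELIP1, with an interval of −1.74 to 0.62, and −0.78 ± 0.78 for ELIP2 (adjusted p = 0.854 and 0.857), where 0.00501% of genes were called lower. That of cry1cry2 minus that of Ler was 1.27 ± 0.55 for ELIP1 and 0.79 ± 0.78 for ELIP2 (adjusted p = 1.00 for both), where edgeR called 0% of genes, 656 had an unadjusted p under 0.05, and DESeq2 called 1.

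**Figure D2:**
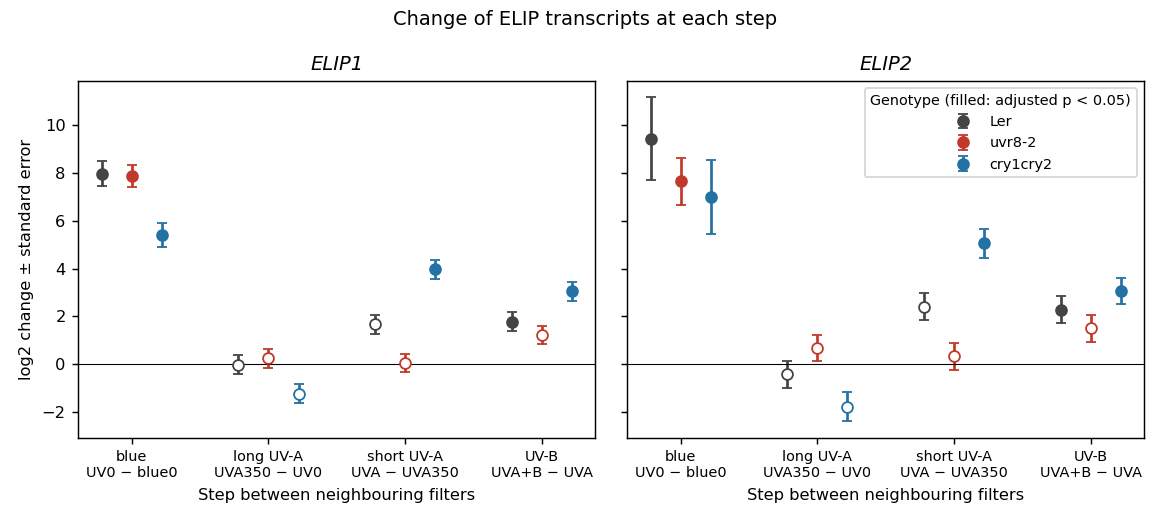
Log2 change of ELIP1 and ELIP2 at each step between neighbouring filters, by genotype, with bars of 1 standard error on either side. Filled points are changes with an adjusted p under 0.05. The blue step lies between 5.39 and 9.44 in all genotypes, the long UV-A step has no filled point, and the short UV-A step is filled in cry1cry2 only.

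Taken over the whole of the ultraviolet, from UV0 to UVA+B, ELIP1 rose by 3.42 ± 0.39 in Ler and by 5.78 ± 0.39 in cry1cry2, and ELIP2 by 4.26 ± 0.56 and 6.35 ± 0.57. These 4 changes were called, with adjusted p-values of 2.998e-05, 8.96e-08, 0.000213 and 4.25e-06, where 9.47% of genes in Ler and 16.3% in cry1cry2 were called higher. Without cry1cry2 UV0 replicate 2 the cry1cry2 values were 6.55 for ELIP1 and 7.20 for ELIP2. In uvr8-2 the values were 1.51 ± 0.39 for ELIP1 and 2.50 ± 0.56 for ELIP2, with adjusted p-values of 0.0970 and 0.0636 from edgeR. DESeq2 gave adjusted p-values of 0.0225 and 0.00418. There 136 genes (0.681%) were called higher by edgeR and 278 by DESeq2. Compared with Ler the ultraviolet change was −1.91 ± 0.55 for ELIP1 in uvr8-2 (adjusted p = 0.178, 0.556% of genes called lower) and 2.37 ± 0.56 in cry1cry2 (adjusted p = 0.124, 0.04% called higher). The second value passed in DESeq2, with an adjusted p of 0.0113, where DESeq2 called 64 genes higher and edgeR 8. In edgeR without cry1cry2 UV0 replicate 2 that value was 3.14. For ELIP2 these differences were −1.76 ± 0.79 and 2.09 ± 0.79 (adjusted p = 0.484 and 0.474).

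From blue0 to UVA+B, ELIP1 rose by 11.40 ± 0.53 in Ler, 9.40 ± 0.47 in uvr8-2 and 11.18 ± 0.50 in cry1cry2. ELIP2 rose by 13.70 ± 1.74, 10.15 ± 0.97 and 13.35 ± 1.56, the largest rise of all tested genes in each genotype. All 6 were called, with adjusted p-values from 2.26e-10 to 5.92e-07, and 21.5%, 12.9% and 20.4% of genes were called higher in Ler, uvr8-2 and cry1cry2. Without blue0 replicate 1 of cry1cry2, ELIP1's rise there was 11.92. The estimated parts of these totals differed between genotypes. However, edgeR called no difference from Ler in any single step for either gene. DESeq2 called that of ELIP1 in cry1cry2 at the blue and short UV-A steps. On the log2 scale, the blue step of ELIP1 made up 70.0% of the total in Ler, 84.0% in uvr8-2 and 48.3% in cry1cry2. The short UV-A step made up 14.5%, 0.452% and 35.5%, and the UV-B step 15.6%, 13.0% and 27.3%. The long UV-A step, which was not called, made up the rest, at −0.206%, 2.58% and −11.1%. For ELIP2 the blue step made up 68.9%, 75.4% and 52.4%, and the long UV-A step of cry1cry2 was −13.3%. These shares are a description, since the fits share their libraries.

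Set side by side under 1 filter, the called differences of the 2 mutants from Ler fell under different filters. In cry1cry2 both genes were lower than in Ler under UVA350, by 11.9-fold for ELIP1 (−3.58 ± 0.40, adjusted p = 7.09e-05) and 12.1-fold for ELIP2 (−3.60 ± 0.61, adjusted p = 0.00251), where 4.82% of genes were called lower. They were also lower under UV0, by 5.15-fold for ELIP1 (−2.36 ± 0.40, adjusted p = 0.00189) and 4.74-fold for ELIP2 (−2.24 ± 0.57, adjusted p = 0.0303), where 3.42% of genes were called lower. Without cry1cry2 UV0 replicate 2 these differences were −3.13 and −3.08, both called. The ELIP2 call under UV0 was lost without Ler replicate 1 (adjusted p = 0.0788), Ler replicate 2 (0.142) or cry1cry2 replicate 1 (0.291). Under UVA the difference was −1.26 ± 0.39 for ELIP1 (adjusted p = 0.0929) and −0.94 ± 0.55 for ELIP2 (adjusted p = 0.396), neither called, where 1.47% were called lower. Under UVA+B it was 0.00 ± 0.39 for ELIP1, with an interval of −0.83 to 0.84, and −0.15 ± 0.55 for ELIP2, with an interval of −1.33 to 1.03, and 0.861% of genes were called in either direction.

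In uvr8-2 both genes were lower than in Ler under UVA+B, by 2.48-fold for ELIP1 (−1.31 ± 0.39, adjusted p = 0.0351) and 3.36-fold for ELIP2 (−1.75 ± 0.55, adjusted p = 0.0480), where 8.4% of genes were called lower. Neither call held when any of the 4 libraries was left out. For ELIP1 the adjusted p was then 0.0638 and 0.166 without Ler replicate 1 and 2 and 0.144 without uvr8-2 replicate 1 or 2. For ELIP2 it was 0.0917 and 0.177 without Ler replicate 1 and 2, and 0.223 and 0.154 without uvr8-2 replicate 1 and 2. With no filter on low counts it was 0.0650 and 0.0760 for ELIP1 and ELIP2. Under UVA the values were −0.75 ± 0.39 and −0.97 ± 0.55, under UVA350 0.86 ± 0.39 and 1.11 ± 0.56, and under UV0 0.60 ± 0.39 and 0.01 ± 0.56 for ELIP1 and ELIP2, none called. Under these 3 filters 0.245%, 0.01% and 0.135% of genes were called in either direction.

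Ordered by mean level, the groups ran for ELIP1 from cry1cry2 UVA+B (5514 ± 589 CPM, SD, n = 2) and Ler UVA+B (5496 ± 568 CPM) down to Ler blue0 (2.02 ± 0.40 CPM). The libraries of neighbouring groups overlapped in 10 of 14 places in this order. The 4 gaps fell below Ler UVA+B, below Ler UVA350, and on either side of cry1cry2 UVA350. For ELIP2 the order began with Ler UVA+B (2766 ± 199 CPM) and cry1cry2 UVA+B (2492 ± 366 CPM), ended with Ler blue0 (0.199 ± 0.028 CPM), and neighbours overlapped in 6 of 14 places. From Ler UV0 downwards the order of the groups was the same for both genes.

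Per kilobase of mRNA, ELIP1 was the more abundant of the pair in every library. It exceeded ELIP2 on average 1.74-fold in Ler under UVA+B, 1.95-fold in cry1cry2 and 2.36-fold in uvr8-2. Under UVA350 the factor was 4.17 in Ler, 4.37 in cry1cry2 and 3.53 in uvr8-2. In CPM, the ratio of ELIP2 to ELIP1 was 0.515 and 0.493 in the Ler UVA+B libraries and 0.229 and 0.195 in the Ler UVA350 libraries. The plot of this ratio by library has its highest mean under UVA+B in each genotype.

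**Figure D3:**
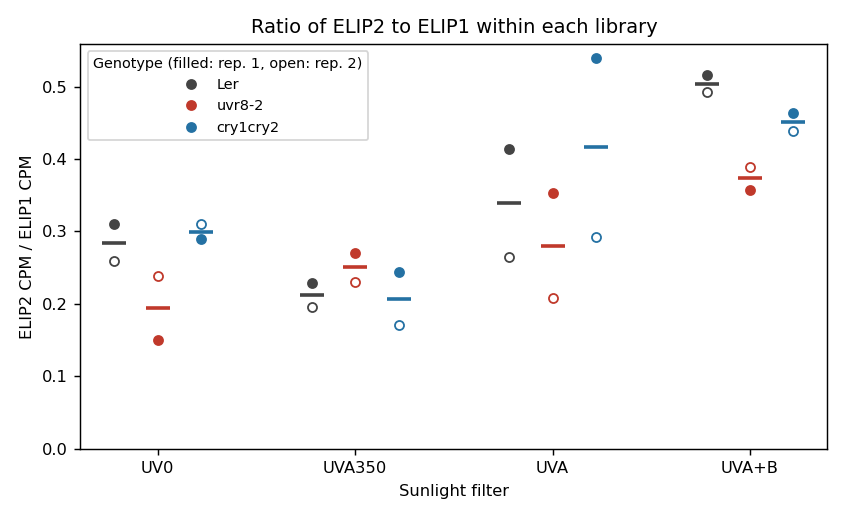
Ratio of ELIP2 to ELIP1 (CPM over CPM) within each library under UV0, UVA350, UVA and UVA+B, by genotype, with bars at group means (n = 2). In Ler the ratio lies between 0.195 and 0.310 under UV0 and UVA350 and reaches 0.493 and 0.515 under UVA+B. Blue0 is left out because ELIP2 there rests on 3 to 15 counts a library.

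The log2 ratio, with 1 CPM added to each gene, was tested with exact two-sided permutation tests that kept genotype or filter fixed, 6 tests in all. It was higher after the short UV-A step by 0.53 (n = 12 libraries, exact p = 0.0463, adjusted p = 0.139), and in 2 of 3 genotypes every UVA library lay above every UVA350 library. At the UV-B step the difference was 0.41 (n = 12, exact p = 0.0833, adjusted p = 0.167). At the blue step it was −0.62 (n = 12, exact p = 0.0278, adjusted p = 0.139), but with 0.1 CPM added it was 0.56, so its sign depends on the few counts under blue0. The long UV-A step (−0.16) and the mutants against Ler (−0.21 for uvr8-2 and 0.04 for cry1cry2) had exact p-values of 0.398, 0.168 and 0.788. No difference of the ratio passed adjustment. The smallest p that a step allows is 0.00926, which is 0.0556 after adjustment over the 6 tests if no other test is as small, so a step alone could not have passed.

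The course of ELIP1 over the 30 libraries was closest to that of ELIP2 among 14529 genes with a mean of at least 5 CPM, and the reverse also held. Pearson's r of their log2 CPM was 0.994 over the 30 libraries, 0.997 over the 15 group means and 0.986 over the 24 libraries left without blue0, a choice made after the data were seen. Over those 24 libraries ELIP2 held rank 2 for ELIP1. The libraries share their groups, so these values describe the pattern and carry no p.

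Apart from its partner, the 8 genes most like ELIP1 were, from r = 0.984 to 0.974, SDR1, GPX7, RSR4, VTE1, VAR1, AT2G37240, CLH2 and PDX2. SDR1 belongs to the short-chain dehydrogenases, GPX7 is a glutathione peroxidase of the chloroplast and VTE1 is tocopherol cyclase, an enzyme of vitamin E synthesis. RSR4 (also known as PDX1.3) and PDX2 are the subunits of the enzyme that makes vitamin B6. VAR1 is a thylakoid protease known for its part in photosystem II repair, and CLH2 is a chlorophyllase. The 8 most like ELIP2, from r = 0.985 to 0.975, were GPX7, RSR4, FLS1, SDR1, AT3G51238, VAR1, VTE1 and HCF152. FLS1 is the main flavonol synthase, HCF152 binds chloroplast transcripts, and AT3G51238 is annotated as a long noncoding RNA. The lists had 5 genes in common. Over the 24 libraries without blue0, 5 of the 8 stayed for ELIP1 and 3 of the 8 for ELIP2.

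These genes moved over narrower ranges than ELIP1 and ELIP2. GPX7 went from 2.24 CPM under blue0 to 52.3 under UV0 and 258 under UVA+B in Ler, and stood at 15.8 in cry1cry2 under UV0. FLS1 went from 6.31 to 159 and 1700.2 CPM in Ler, with 55.1 in cry1cry2 under UV0 and 447 in uvr8-2 under UVA+B. VAR1 went from 544 to 1723 and 4215 CPM. These are group means of 2 libraries.

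**Figure D4:**
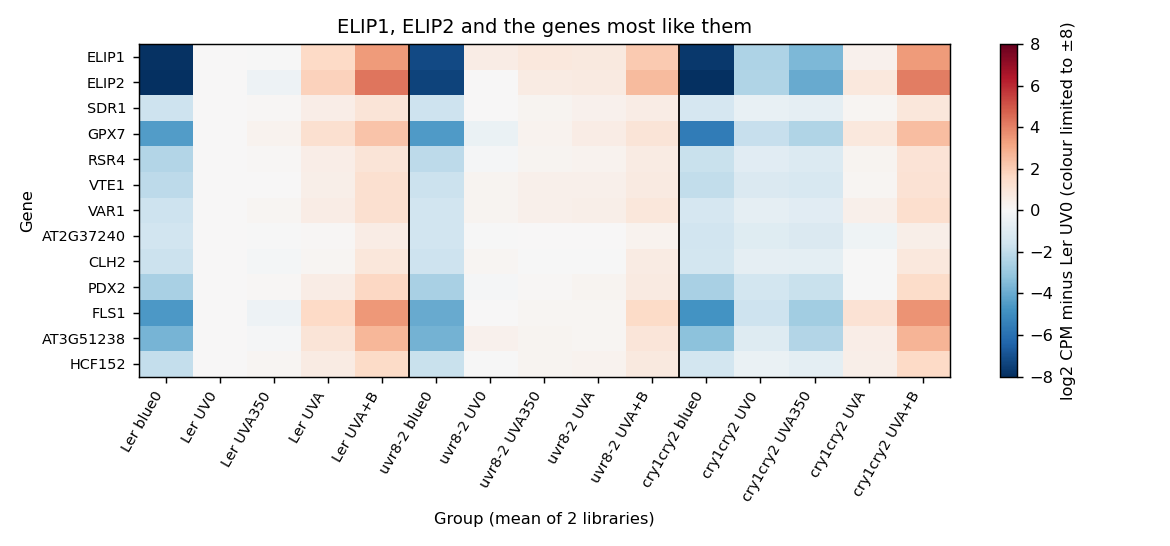
Mean log2 CPM of ELIP1, ELIP2 and the 11 genes most like them in the 15 groups, relative to Ler under UV0 (colour, limited to 8 on either side). The rows share low values under blue0, low values of cry1cry2 under UV0 and UVA350, and lower values of uvr8-2 than of Ler under UVA+B, and differ in range.

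The other light-harvesting-like proteins of the ELIP family served as the nearest comparison: the one-helix proteins OHP1 and OHP2, LIL3.1 and LIL3.2, which bind enzymes of chlorophyll synthesis, the stress-enhanced proteins SEP1 and SEP2, the photosystem II subunit PSBS, which is needed for the fast dissipation of excess light energy, and the ferrochelatase FC2, which carries a light-harvesting motif. From blue0 to UVA+B in Ler all 8 of 8 were called higher, against 21.5% of all genes, with a median log2 change of 1.52. OHP2 rose by 2.06 ± 0.11 (adjusted p = 1.28e-11), PSBS by 1.97 ± 0.11, SEP1 by 1.67 ± 0.11 and LIL3.2, the smallest, by 0.32 ± 0.10 (adjusted p = 0.00876). PSBS reached 6093 ± 280 CPM (SD, n = 2) from 1558 ± 31 CPM. Over this span in Ler the family thus had the direction of ELIP1 and ELIP2 without their range. In uvr8-2 7 of 8 were called higher, against 12.9% of all genes, and in cry1cry2 5 of 8, against 20.4%. LIL3.1 was called in neither mutant, and LIL3.2 and FC2 were not called in cry1cry2. Within the span, mean FC2 level in Ler was 211 CPM under UVA350 and 195 CPM under UVA+B.

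At the blue step 4 of the 8 were called higher in Ler, against 9.7% of all genes, and 4 in uvr8-2, against 8.38%. In both they were PSBS, OHP2, SEP1 and FC2. In cry1cry2 edgeR called 0 of 8, with 2 at an unadjusted p under 0.05 and a median of 0.25, a count that says little where 0.16% of all genes were called higher. For PSBS and OHP2 the smaller blue step of cry1cry2 was called as a difference from Ler, in a comparison where 0.44% of all genes were called lower, at −0.82 ± 0.15 (adjusted p = 0.0145) and −0.69 ± 0.16 (adjusted p = 0.0468). For ELIP1 the value was larger and its SE wider, and it was not called. At the UV-B step 1 of 8 was called higher in Ler, OHP2 (0.50 ± 0.11, adjusted p = 0.0121), against 2.23% of all genes. In cry1cry2 3 of 8 were called higher there, SEP1, PSBS and OHP2, against 6.72%. Under UVA+B, OHP2, SEP1 and OHP1 were called lower in uvr8-2 than in Ler, by values of −0.48 ± 0.11, −0.40 ± 0.11 and −0.48 ± 0.15. These are 3 of 8, against 8.4% of all genes.

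**Figure D5:**
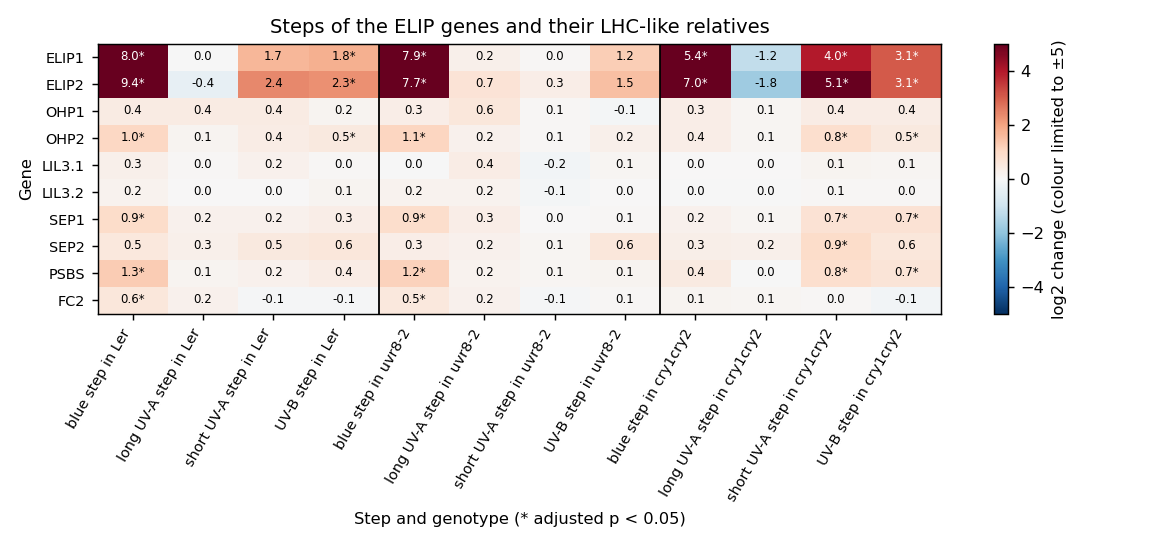
Log2 change (number and colour, colour limited to 5 on either side) of ELIP1, ELIP2 and 8 light-harvesting-like relatives at the 4 steps in each genotype, with a star at an adjusted p under 0.05. The relatives have their stars at the blue step of Ler and uvr8-2 and at the short UV-A and UV-B steps of cry1cry2, apart from OHP2 at the UV-B step of Ler, and none exceeds the 1.26 of PSBS in Ler.

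The antenna proteins themselves bind most leaf chlorophyll. From blue0 to UVA+B in Ler, 15 of 17 antenna genes were called lower, against 22% of all genes, with a median of −0.75. LHCA1 fell by 0.56 on the log2 scale, with an SE of 0.14. At the UV-B step in cry1cry2, where ELIP1 and ELIP2 rose 8.28-fold and 8.41-fold, 13 of 17 were called lower, against 7.29% of all genes, with a median of −0.76. At the UV-B step in Ler edgeR called 0 of 17, with 4 at an unadjusted p under 0.05 and a median of −0.25, and 0.811% of all genes were called lower. At the short UV-A step in cry1cry2, ELIP1 and ELIP2 also rose. There edgeR called 0 of 17, with 0 at an unadjusted p under 0.05 and a median of −0.11, and 270 of all 19980 genes lower. From UV0 to UVA+B in Ler it called 0 of 17, with 1 at an unadjusted p under 0.05 and a median of −0.23. In uvr8-2 it also called 0 of 17, with 0 at an unadjusted p under 0.05 and a median of 0.09. In cry1cry2 that change was called lower for 16 of 17 and higher for LHCB4.3, with a median of −0.77. Over all genes, 1659 were called lower from UV0 to UVA+B in Ler, 18 in uvr8-2 and 3562 in cry1cry2. The exception was LHCB4.3, an antenna form known from strong light, which rose by 1.80 ± 0.19 from blue0 to UVA+B in Ler. It rose by 1.96 ± 0.19 at the blue step and was called lower in cry1cry2 than in Ler under UVA350, by a value of −1.77 ± 0.19. Under UVA+B LHCB4.3 was unlike ELIP1 and ELIP2. It was called higher in uvr8-2 than in Ler (267 against 152 CPM), as were 1356 of all 19980 genes. In cry1cry2 (86.8 CPM) it was called lower than in Ler, as were 112 genes. From UVA to UVA+B in Ler its mean went from 205 to 152 CPM, not called. Several LHCB genes are near-identical copies, so single values of that group are uncertain.

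Of 16 genes of the xanthophyll cycle, carotenoid synthesis and other photoprotection, 9 were called higher at the blue step in Ler, where 9.7% of all genes were. BCH1, a carotene hydroxylase, rose by 2.01 ± 0.20 there, and STN8, a kinase of photosystem II proteins, by 0.84 ± 0.11. For both, 2 of the 16, the blue step was called smaller in cry1cry2, as it was for 0.44% of all genes, at −1.37 ± 0.29 for BCH1 (adjusted p = 0.0290) and −0.77 ± 0.16 for STN8 (adjusted p = 0.0283). At the UV-B step in Ler PTOX, a plastid oxidase, the carotenoid enzyme PDS and BCH1 were called higher, at 0.42 ± 0.10, 0.34 ± 0.09 and 0.72 ± 0.19. They are 3 of 16, against 2.23% of all genes.

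Among 16 regulators of light signalling, 6 were called higher and 3 lower at the blue step in Ler, where 9.7% and 8.43% of all genes were. RUP2, a repressor of UVR8, rose by 3.03 ± 0.32, HYH by 2.32 ± 0.36, HY5 by 1.73 ± 0.28 and BBX22, a partner of HY5, by 1.00 ± 0.14. PHYA, BBX21 and CRY1 were the 3 called lower. At the UV-B step in Ler 3 of 16 were called higher, BBX22, RUP1 and RUP2, against 2.23% of all genes. RUP2 was at 1.13 ± 0.23, while HY5 was at 0.80 ± 0.24 with an adjusted p of 0.0785. Under UVA+B, RUP1, RUP2, BBX22 and HY5 were called lower in uvr8-2 than in Ler, 4 of 16, against 8.4% of all genes. HY5 was at −0.82 ± 0.23 (adjusted p = 0.0256). UVR8 was called higher there, as were 1356 of all 19980 genes.

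Of 7 tested stress markers, out of 8 listed, 2 were called higher at the blue step of Ler, against 9.7% of all genes, and 2 at its UV-B step, against 2.23%. At both steps these were ZAT12 and ZAT10, zinc finger factors induced by strong light and other stresses. ZAT12 rose by 1.06 ± 0.29 and 1.54 ± 0.25, and ZAT10 by 0.98 ± 0.27 and 1.17 ± 0.25. Both were called lower in uvr8-2 than in Ler under UVA+B, where 8.4% of all genes were, with ZAT12 at −1.39 ± 0.25 (adjusted p = 0.00131). The other 5 did not pass at either step. HSP70-4, which is among them, was called higher from UV0 to UVA+B in Ler, as were ZAT12 and ZAT10. These were 3 of 7, with a median of 1.00, against 9.47% of all genes. In cry1cry2 the same 3 and FER1 were called higher over that span, 4 of 7, with a median of 1.37, against 16.3%. In uvr8-2 only ZAT12 was, 1 of 7, with a median of 0.18, against 0.681%. HSP101, a chaperone, was at −0.29 ± 0.30 at the blue step and −0.17 ± 0.29 at the UV-B step, and the heat stress factor HSFA2 at −0.92 ± 0.87 and 0.02 ± 0.77.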

How the data were processed

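Poly(A) RNA of whole rosettes was made into libraries with a stranded kit, per the labels' protocols. The authors deposited estimated counts per gene for 30 libraries. FastQC, Trimmomatic 0.33 and kallisto were used, per the submitters' processing notes. What each tool did, which kallisto version, which transcript set and which build were not given in the sources used here. kallisto shares out reads that fit several transcripts, which can move counts between near-identical copies.

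Estimated counts were rounded and tested with edgeR 4.0.16 in R 4.3.3. filterByExpr by group left 19980 genes, and both ELIP genes passed. TMM factors ran from 0.927 to 1.11. The robust quasi-likelihood fit took each group as 1 coefficient, which leaves 15 residual degrees of freedom, with a common biological coefficient of variation of 0.125. Standard errors are Wald errors of that fit. Calls were made at an adjusted p under 0.05 within each comparison. CPM of the tissue markers are counts over the library total. All other CPM are counts over the library's total of filtered genes, scaled by its TMM factor. The test was tried on simulated data with known changes. Ratios were tested with exact permutation tests. Likeness used log2 CPM with a prior count of 2. Alternatives were DESeq2 1.42.0, RLE factors, no filter, a replicate block, single libraries left out, the 3 libraries with over 1% chloroplast counts left out, and ELIP1 and ELIP2 summed.

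Promoters, lengths and identity came from the RefSeq annotation of TAIR10.1, matched by locus, with Biopython 1.88. Of the loci, 97.7% were in the reference gene table. The named genes were ELIP1 and ELIP2 in every comparison, the 8 most correlated with each, and list members called in the comparison described or with the smallest adjusted p. LHCA1, LIL3.2 and the genes with values beside called ones were picked from those lists after their values were seen. Members and lists were chosen with earlier results of these data known. Since all libraries are pools from 1 outdoor day, the p-values cover the spread between such pools only.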

Additional observations from a re-analysis of the deposited data

How the results depend on the processing

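RLE factors and a pseudocount of 5 CPM changed no call or direction of ELIP1, ELIP2 or their ratio, and no alternative changed the direction of a called change. Without the filter on low counts, calls were lost for ELIP2 at the UV-B step in Ler (2.28, adjusted p = 0.0686) and for ELIP1 and ELIP2 in uvr8-2 against Ler under UVA+B (−1.31 and −1.75). Without the libraries over 1% chloroplast counts, ELIP2 lost its call at the UV-B step in cry1cry2 (2.63). DESeq2 added calls for the short UV-A step in Ler (1.66 and 2.42 for ELIP1 and ELIP2), for the change from UV0 to UVA+B in uvr8-2 (1.51 and 2.50), and, for ELIP1 in cry1cry2 against Ler, for the short UV-A step (2.32), the blue step (−2.63) and the change from UV0 to UVA+B (2.38). Summing both genes turned the ELIP1 difference of cry1cry2 from Ler under UVA+B to −0.045, and 0.1 CPM in place of 1 turned the ratio at the blue step to 0.56. The cause of these shifts was not tested.

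The replicate numbers are not stated to mark shared blocks, so they were not used as pairs. Deviations of same-numbered libraries had correlations of 0.0261 to 0.435 over 105 pairs of groups, with a median of 0.178, and 92 of the pairs were over 0.1. With the replicate block, the change from UV0 to UVA+B in uvr8-2 passed for ELIP1 (1.51, adjusted p = 0.0467) and ELIP2 (2.47, adjusted p = 0.0239), and ELIP1 in cry1cry2 against Ler under UVA+B was −0.012. Other calls were as without the block.

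Leaving out single libraries assumes that a lone library varies like the other groups. Where a called value lost its call in at least 1 such fit, its values over all of these fits ran from 1.49 to 2.14 for ELIP1 and 1.77 to 3.07 for ELIP2 at the UV-B step in Ler. They ran from −1.52 to −1.13 and −1.89 to −1.62 in uvr8-2 against Ler under UVA+B. For ELIP2 they ran from −3.08 to −1.72 in cry1cry2 against Ler under UV0 and from 6.18 to 7.53 at the blue step in cry1cry2. ELIP1 gained a call for the change from UV0 to UVA+B in cry1cry2 against Ler, within 1.88 to 3.14. Uncalled values that changed sign were the UV-B step of uvr8-2 minus Ler (−1.003 to 0.10 for ELIP1, −1.58 to 0.44 for ELIP2) and of cry1cry2 minus Ler for ELIP2 (−0.0028 to 1.81), the short UV-A step in uvr8-2 (−0.62 to 0.49 and −0.90 to 0.97), the long UV-A step of ELIP1 in Ler (−0.24 to 0.24) and as uvr8-2 minus Ler (−0.0020 to 0.51), and the blue step of ELIP1 as uvr8-2 minus Ler (−0.34 to 0.17). The same held for cry1cry2 minus Ler under UVA+B (−0.11 to 0.12 for ELIP1, −0.31 to 0.0054 for ELIP2) and, for ELIP1, under blue0 (−0.50 to 0.77), for uvr8-2 minus Ler of ELIP2 under UV0 (−0.10 to 0.13), and for the ratio in cry1cry2 minus Ler (−0.0504 to 0.1251). ELIP2 under blue0 is limited by depth.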
